A study of Mus musculus with 9 samples.

Results

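The mitochondrial genome is represented in the deposited table of mouse aortic gene expression by 37 genes, chosen by gene names that start with mt-, out of 54532 genes in all. They are 13 protein-coding genes, 2 ribosomal RNA (rRNA) genes and 22 transfer RNA (tRNA) genes, and 28 are annotated on the plus strand and 9 on the minus strand. RNA sequencing was done on 9 aortas from Apoe-/- mice, which lack apolipoprotein E and develop atherosclerosis. The HFD_IO group (n = 3) had a high fat diet with iron given as intraperitoneal ammonium iron(III) citrate, the HFD group (n = 3) had the high fat diet, and the CD group (n = 3) had chow. All 3 groups carried the same Apoe deletion, were 6 to 8 weeks old at the start and were kept on their regimen for 24 weeks. No group had iron on chow, so HFD_IO against CD differs in diet and iron at once. The labels name each sample as an aorta and do not say how the mice were assigned or whether litters or cages were shared, so p-values measure the spread between these aortas.

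Mitochondria keep a small circular genome, which codes for core subunits of the respiratory chain and for the RNAs needed to translate them. Both strands are transcribed as long precursors, and the tRNAs that lie between the other genes are cut out so that mRNAs and rRNAs are released. The strand with most genes gives the rRNAs, most mRNAs and most tRNAs, and the other strand gives mt-Nd6 and a few tRNAs. All further subunits of respiratory complexes I, III, IV and V, all of complex II, and the proteins of mitochondrial transcription and translation are coded in the nucleus. In the aortic wall, mitochondria are found in smooth muscle, endothelium, fibroblasts and leukocytes, and the brown fat around the vessel is dense in them.

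A stretch of the mitochondrial genome is also present as a nuclear copy, and it sets how the values of several genes are to be read. In build GRCm38, 7 annotated pseudogenes lie on the minus strand at chr1:24611535-24616197, and they correspond in order to bases 6381 to 11042 of the mitochondrial genome, a stretch of 4662 bases. The coding sequences of mt-Co2, mt-Atp6, mt-Co3 and mt-Nd4l were identical to Gm28661, Gm10925, Gm28437 and Gm10222 over 681, 678, 783 and 294 compared bases. The first 876 bases of mt-Nd4, 63.6% of that gene, were identical to Gm28439. Gm28438 differed from mt-Nd3 at 1 of 345 bases (T3C, with positions counted from 1 at the 5′ end of the mitochondrial gene and its base written first). Gm29216 differed from bases 1054 to 1545 of mt-Co1 at 6 of 492 bases, all at its start (T1056A, C1057T, A1059G, A1060G, C1062A and A1066T). The opening 60 bases of the compared stretch are shown for a partly copied gene, a fully identical pair and a pair with a single difference, since a read from an identical stretch cannot be placed by its sequence. They come from the GENCODE transcripts for GRCm38 (mt-Co1 chrMT:6381-6440, mt-Co2 chrMT:7013-7072 and mt-Nd3 chrMT:9459-9518, plus strand; Gm29216 chr1:24616138-24616197, Gm28661 chr1:24615506-24615565 and Gm28438 chr1:24613060-24613119, minus strand). Capitals mark the bases that differ within a pair.
mt-Co1: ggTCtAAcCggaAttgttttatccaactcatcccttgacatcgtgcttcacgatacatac
Gm29216: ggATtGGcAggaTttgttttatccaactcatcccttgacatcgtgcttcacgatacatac
mt-Co2: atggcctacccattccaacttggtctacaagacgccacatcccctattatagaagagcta
Gm28661: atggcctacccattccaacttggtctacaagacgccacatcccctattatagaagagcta
mt-Nd3: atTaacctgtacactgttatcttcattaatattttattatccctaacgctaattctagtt
Gm28438: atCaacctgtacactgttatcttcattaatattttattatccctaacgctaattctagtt

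In all, 11 of the 37 genes lay wholly inside the copied stretch (mt-Co2, mt-Atp8, mt-Atp6, mt-Co3, mt-Nd3, mt-Nd4l and 5 tRNA genes), and mt-Co1 and mt-Nd4 lay partly inside it. The sources used here do not give the read length, or how reads that align equally well to more than 1 place were counted. The values of the 11 genes inside the stretch are therefore uncertain as measures of mitochondrial RNA, and those of mt-Co1 and mt-Nd4 may miss part of each transcript. A further full-length match to mt-Co1 was Gm13340 on chromosome 2, at 97.6% identity and with 39 to 143 reads per library.

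The tRNA genes on which results turn are shown next, in the direction of the tRNA and from the same transcripts, with the anticodon in capitals. The anticodon was taken as the middle of a 7-base loop closed by at least 4 of 5 possible stem pairs. mt-Tc reads cysteine codons (chrMT:5192-5257, minus strand), mt-Tn asparagine codons (chrMT:5089-5159, minus strand), mt-Te glutamate codons (chrMT:14071-14139, minus strand), mt-Th histidine codons (chrMT:11546-11612, plus strand), and mt-Tl1 reads leucine codons of the UUR kind (chrMT:2676-2750, plus strand).
mt-Tc: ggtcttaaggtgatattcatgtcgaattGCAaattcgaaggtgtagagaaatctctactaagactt
mt-Tn: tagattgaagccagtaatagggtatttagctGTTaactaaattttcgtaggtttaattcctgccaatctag
mt-Te: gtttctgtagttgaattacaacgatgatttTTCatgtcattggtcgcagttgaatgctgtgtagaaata
mt-Th: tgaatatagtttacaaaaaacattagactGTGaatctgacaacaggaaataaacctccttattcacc
mt-Tl1: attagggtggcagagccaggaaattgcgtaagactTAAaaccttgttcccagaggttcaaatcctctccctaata

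Levels were deposited as FPKM, a read count divided by gene length and by a scale of the library. That scale was proportional to median-of-ratios size factors and not to total reads. It was 0.895 (HFD_3) to 1.10 (CD_1) times the recovered reads. Whole reads were recovered from the step size of each library, at 16660963 to 18308450 reads per library. Smooth muscle markers, which define the labelled tissue, were all detected (8 of 8) and summed to 2475 to 4223 FPKM in HFD_IO, 6919 to 8078 FPKM in HFD and 5369 to 5994 FPKM in CD. Macrophage markers (8 of 8 detected) summed to 3182 to 5490 FPKM in HFD_IO, 1926 to 3660 FPKM in HFD and 302 to 432 FPKM in CD. Lyz2 made up most of each macrophage sum, with 2401 to 4511 FPKM in HFD_IO and 1674 to 3281 FPKM in HFD. Every other macrophage marker was higher in all HFD_IO than in all HFD libraries, such as Cd68 (338 to 420 against 99.9 to 149 FPKM). Brown adipocyte markers (8 of 8 detected) summed to 205 to 289 FPKM in HFD_IO, 612 to 1568 FPKM in HFD and 244 to 464 FPKM in CD. White adipocyte markers (7 of 7 detected) summed to 142 to 449, 398 to 907 and 160 to 331 FPKM in HFD_IO, HFD and CD, and erythroid markers (6 of 6 detected) to 2573 to 4151, 8324 to 26100 and 4677 to 12375 FPKM. Endothelial markers (7 of 7) summed to 264 to 314, 132 to 255 and 414 to 586 FPKM, and fibroblast markers (7 of 7) to 1157 to 1290, 1403 to 1621 and 953 to 1265 FPKM in the same groups. Skeletal muscle markers summed to 4.43 to 15.2, 6.57 to 104 and 4.56 to 10.6 FPKM in the same groups, with HFD_2 (104) and HFD_3 (63.9) standing out. In these 2 libraries Acta1, the actin of skeletal muscle, was at 51.3 and 31.3 FPKM and the fast-fibre troponin Tnni2 at 9.39 and 5.51 FPKM, while Tnnc2 was at 0 in every HFD and CD library and Myh2 reached at most 0.145 FPKM. Cardiac markers reached 44.5 FPKM in 1 HFD_IO library. HFD_3 and CD_1 stood apart within their groups, each with the highest brown adipocyte and erythroid sums. Their part in the results below was not tested beyond leaving them out, and fewer cells of a type and less RNA per cell cannot be told apart in these bulk samples.

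The mitochondrial genome gave 4.07%, 3.45% and 2.44% of reads in HFD_IO aortas, 2.65%, 3.35% and 4.89% in HFD aortas, and 3.75%, 2.39% and 2.35% in CD aortas. Group means were 3.32 ± 0.822% in HFD_IO, 3.63 ± 1.15% in HFD and 2.83 ± 0.797% in CD (SD, n = 3 each). The ranges of all 3 groups overlapped, and the highest and lowest libraries within a group lay further apart than any 2 group means. The highest shares of the HFD and CD groups were those of HFD_3 and CD_1. The mRNA genes held 94.2% to 97.5% of mitochondrial reads, the rRNA genes 2.18% to 5.45%, and the tRNA genes 0.202% to 0.447%. That order of the classes was the same in all 9 libraries, as the plot of read shares shows.

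**Figure D1:**
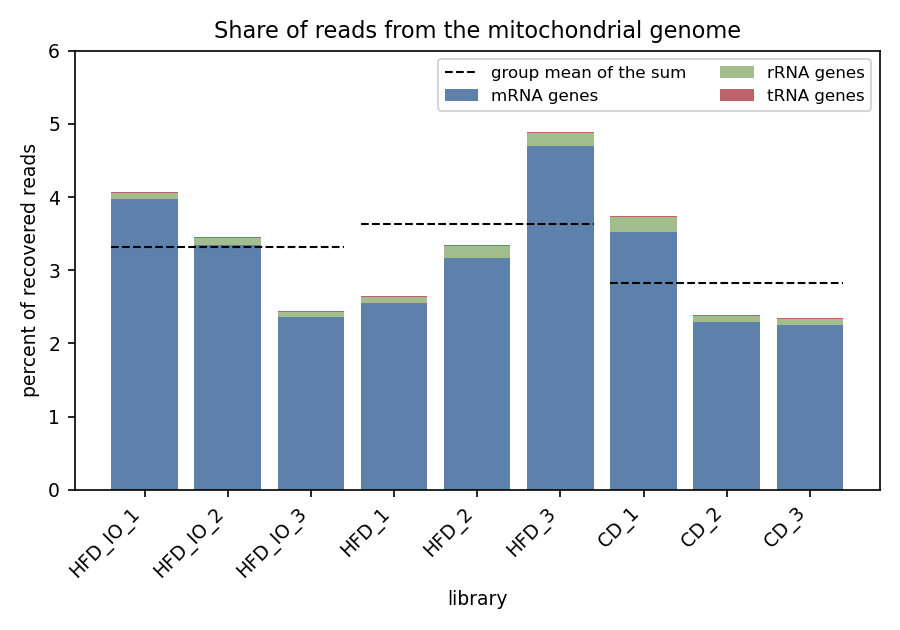
Percent of recovered reads from mitochondrial mRNA, rRNA and tRNA genes (stacked bars, y axis) in each library (x axis), with dashed lines at the group means of the sum. The libraries range from 2.35% to 4.89% and the 3 groups overlap, with HFD_3 highest.

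A comparison between groups could be made for the 31 members that reached 1 FPKM in at least 3 of the 9 libraries, namely the 13 protein-coding genes, the 2 rRNA genes and 16 tRNA genes. The threshold was an adjusted p under 0.05 over all 13883 genes tested (limma). In HFD against CD, the cytochrome c oxidase genes mt-Co3 and mt-Co2 rose and the tRNA genes mt-Tc, mt-Tn, mt-Te and mt-Th fell. These are 2 higher and 4 lower of 31 members, against 21.8% of all genes tested that were higher and 17.6% that were lower, so neither count stood above the background of this comparison. Of the 31, 9 had groups that did not overlap, against 50.7% of all genes. In HFD_IO against HFD, mt-Co3 fell and mt-Tn and mt-Th rose, which are 2 higher and 1 lower of 31, against a background of 14.1% higher and 14.5% lower. The groups did not overlap for 3 of 31 members, against 48.5% of all genes. In HFD_IO against CD, mt-Tl1 rose and no member fell, against a background of 17.5% higher and 15% lower, and the groups did not overlap for 3 of 31 members, against 47% of all genes. At an unadjusted p under 0.05, 9, 5 and 3 members would be counted in the same 3 comparisons. The share of all genes at that level is not given here. It cannot be below the shares past the adjusted threshold, so these counts are not a result about the members. HFD against CD and HFD_IO against HFD share the 3 HFD libraries, so a gene set apart in HFD moves in opposite directions in them.

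The median log2 fold change of the 31 members was -0.05 in HFD against CD, 0.23 in HFD_IO against HFD and 0.19 in HFD_IO against CD, beside 0.06, -0.00 and -0.01 over all genes tested. Among the 13 protein-coding genes the medians were 0.59, -0.22 and 0.37, and 9, 5 and 13 of the 13 had a positive change. With a median SE of 0.35 for these 13 genes, most of the changes were of the size of their error. The 6 members that failed the filter were tRNA genes, described with the others below.

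**Figure D2:**
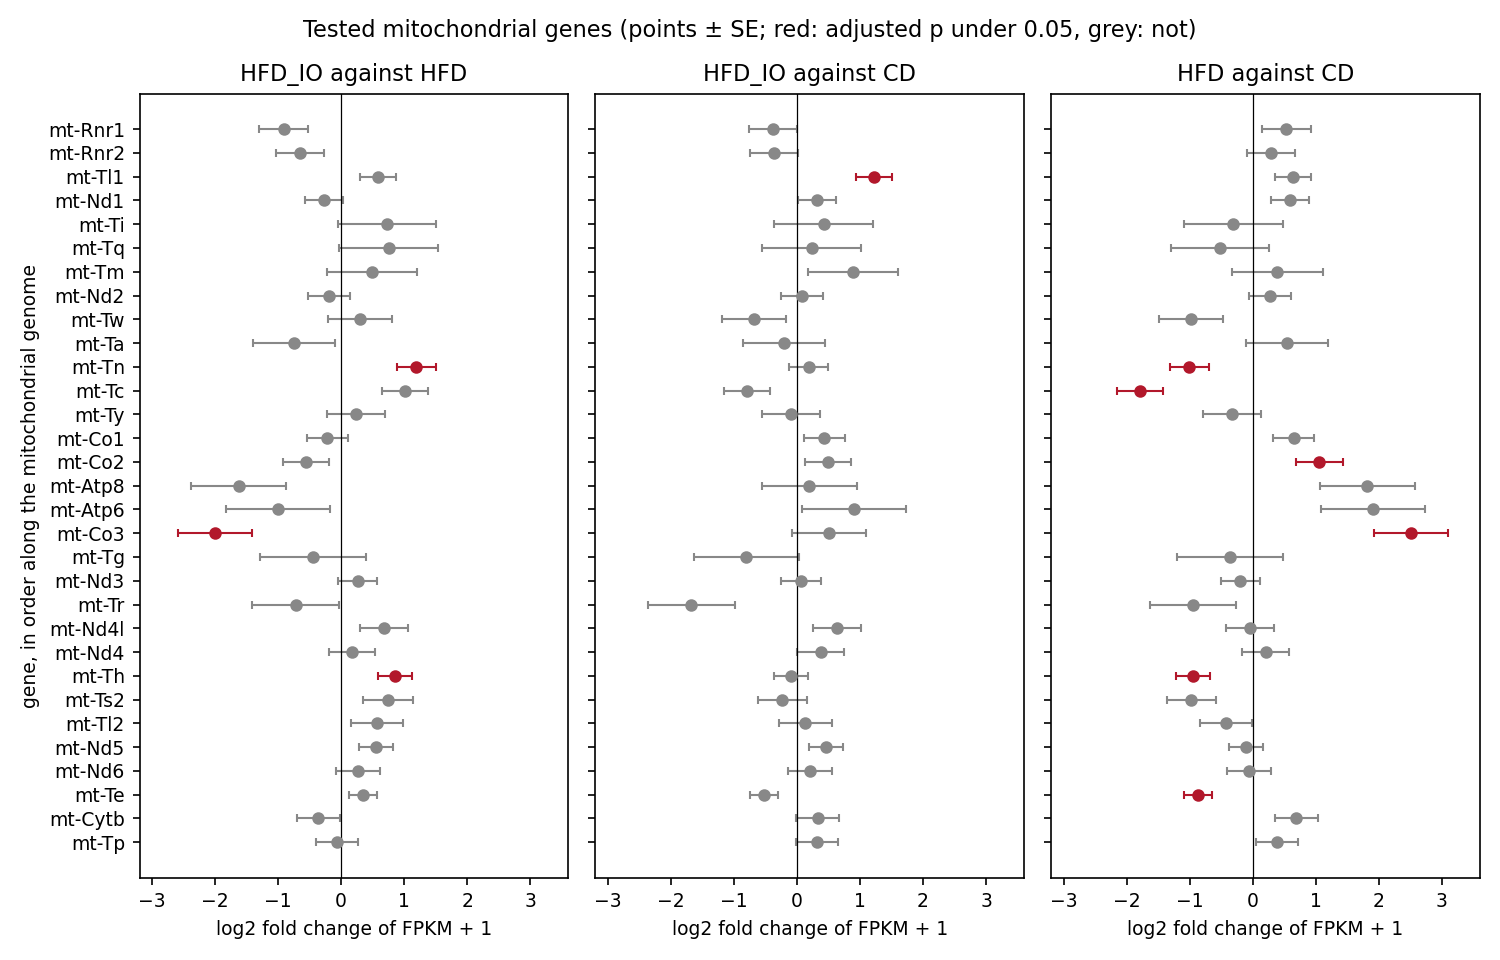
Log2 fold change of FPKM + 1 with its SE (x axis) for the 31 tested members in genome order (y axis) in 3 comparisons, red where the adjusted p is under 0.05. The called points are mt-Co3, mt-Tn and mt-Th in HFD_IO against HFD, mt-Tl1 in HFD_IO against CD, and mt-Co2, mt-Co3, mt-Tc, mt-Tn, mt-Te and mt-Th in HFD against CD.

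Complex I, NADH dehydrogenase, has 7 subunits coded by members: mt-Nd1 to mt-Nd6 and mt-Nd4l. mt-Nd1, a membrane subunit near the quinone site, had 5069, 4274 and 3335 FPKM in HFD_IO, 3759, 4684 and 7229 FPKM in HFD, and 4507, 2791 and 2967 FPKM in CD. mt-Nd2 had 3085, 2667 and 1756 FPKM in HFD_IO, 1967, 2458 and 4441 FPKM in HFD, and 2851, 2180 and 1961 FPKM in CD. In both genes HFD_3 was the highest library of all, and the groups overlapped. mt-Nd2, mt-Nd4 and mt-Nd5 are the antiporter-like subunits that move protons across the membrane.

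mt-Nd4 had 2942, 2112 and 1601 FPKM in HFD_IO, 1432, 1507 and 3217 FPKM in HFD, and 2346, 1444 and 1349 FPKM in CD, with overlap of all groups. mt-Nd5 had 1794, 1552 and 1086 FPKM in HFD_IO, 819, 789 and 1465 FPKM in HFD, and 1058, 1048 and 1061 FPKM in CD. Its lowest HFD_IO library lay just above its highest CD library, and the difference did not pass the threshold (log2 fold change 0.45, SE 0.27, adjusted p = 0.234). mt-Nd6, the only mRNA gene of the minus strand, had 1680, 1640 and 1133 FPKM in HFD_IO, 1029, 902 and 1913 FPKM in HFD, and 1932, 1022 and 1026 FPKM in CD. Its 2 highest libraries were CD_1 and HFD_3. mt-Nd6 shares 14 bases with mt-Nd5 on the opposite strand, and the sources used here do not say whether the counting used strand, so RNA from both strands over these 519 bases cannot be told apart.

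The other complex I genes, mt-Nd3 and mt-Nd4l, lie inside the copied stretch. mt-Nd3 had 89.4, 58.5 and 52.9 FPKM in HFD_IO, 40.2, 52.9 and 74.1 FPKM in HFD, and 83.9, 41.4 and 69.6 FPKM in CD. mt-Nd4l had 35.5, 21.6 and 27.3 FPKM in HFD_IO, 13.3, 10.7 and 32.9 FPKM in HFD, and 23.6, 13.2 and 16.8 FPKM in CD. Neither passed the threshold in any of the 3 comparisons, and no complex I member did.

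Complex III has a single member, mt-Cytb, the cytochrome b subunit that holds both quinone sites. It had 6225, 5332 and 3747 FPKM in HFD_IO, 4640, 5498 and 10324 FPKM in HFD, and 5099, 3689 and 3347 FPKM in CD. HFD_3 had more than the other HFD libraries together, and the change in HFD against CD (0.69, SE 0.34, adjusted p = 0.139) did not pass.

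In complex IV, cytochrome c oxidase, 3 members code for the catalytic core. mt-Co1, which carries the heme and copper site where oxygen is reduced, had the highest level per length of all members in every library, with 10150, 8968 and 6169 FPKM in HFD_IO, 6732, 10053 and 13082 FPKM in HFD, and 8095, 5301 and 5359 FPKM in CD. It held 35.8% to 44.3% of mitochondrial reads. Its groups overlapped and its change in HFD against CD (0.65, SE 0.33, adjusted p = 0.142) did not pass.

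mt-Co3, a core subunit without a redox centre, had 50.8, 36.6 and 63.0 FPKM in HFD_IO, 78.1, 232 and 433 FPKM in HFD, and 63.5, 20.5 and 30.3 FPKM in CD. All 3 HFD libraries lay above every other library, with a spread of several fold among themselves. The log2 fold change was 2.51 in HFD against CD (SE 0.59, adjusted p = 0.0107) and -2.00 in HFD_IO against HFD (SE 0.59, adjusted p = 0.0341), and 0.51 in HFD_IO against CD (adjusted p = 0.553). The first of these passed in all 24 alternative settings run, the second in 15 of 24. The change in HFD_IO against HFD had an adjusted p of 0.106 without HFD_3, 0.0888 without HFD_2, and 0.0811, 0.101 and 0.0578 without HFD_IO_1, HFD_IO_2 and HFD_IO_3. With the reads of the identical copy Gm28437 added, a setting chosen after the data had been seen, its adjusted p was 0.057. Without HFD_1, the lowest of its group, the 2 fold changes were 3.18 and -2.67, and without HFD_3, the highest, 1.95 and -1.44. Gm28437 itself averaged 29.4 ± 5.63 FPKM in HFD_IO, 49.8 ± 30.3 FPKM in HFD and 26.1 ± 17.5 FPKM in CD (SD, n = 3 each), and did not pass (0.92, SE 0.47, adjusted p = 0.15 in HFD against CD). Of the reads counted to either of the pair, mt-Co3 received 58.9%, 56.4% and 72.1% in HFD_IO, 74.7%, 85.7% and 83.8% in HFD, and 57.8%, 56.9% and 64.7% in CD. The division of reads between 2 identical sequences thus differed by group as well, with all HFD libraries highest.

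mt-Co2, which takes electrons from cytochrome c at its copper centre, had 136, 106 and 63.7 FPKM in HFD_IO, 120, 113 and 219 FPKM in HFD, and 106, 57.2 and 53.4 FPKM in CD. Each HFD library lay above each CD library, by a narrow margin for CD_1. The change in HFD against CD was 1.06 (SE 0.37, adjusted p = 0.0468) and passed in 12 of 24 alternative settings. Its adjusted p was 0.0593, 0.0577 and 0.146 without HFD_1, HFD_2 and HFD_3, 0.134 and 0.144 without CD_2 and CD_3, and 0.062 without HFD_IO_2. It was also 0.144 under TPM, 0.207 under quantile normalization 0.0854 with scaling on nuclear reads, 0.0625 with voom on plain library totals and 0.106 without a filter on low values. With the reads of Gm28661 added, a setting chosen after the data had been seen, it was 0.124. Its copy Gm28661 averaged 107 ± 23.8 FPKM in HFD_IO, 175 ± 94.7 FPKM in HFD and 111 ± 97.8 FPKM in CD (SD, n = 3 each).

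Complex V, ATP synthase, has mt-Atp6, the subunit beside the rotor, and mt-Atp8, a short membrane subunit. mt-Atp6 had 113, 70.3 and 25.0 FPKM in HFD_IO, 55.9, 60.9 and 481 FPKM in HFD, and 41.6, 18.5 and 38.1 FPKM in CD. HFD_3 was far above all others, and although every HFD library exceeded every CD library the change of 1.90 (SE 0.83, adjusted p = 0.0966) did not pass. Its copy Gm10925 passed in HFD against CD (1.27, SE 0.44, adjusted p = 0.0469) and was the only 1 of the 7 copies to pass in any comparison. mt-Atp8 was the lowest mRNA, with 1.33, 3.94 and 3.61 FPKM in HFD_IO, 5.32, 10.6 and 20.2 FPKM in HFD, and 0, 8.61 and 2.69 FPKM in CD. It had at most 67 reads in a library, and 43 of its bases are shared with mt-Atp6.

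Levels per length fell into 2 sets by position. The 6 mRNA genes wholly inside the copied stretch together held 0.384% to 1.57% of mitochondrial reads, and the other 7 held 93.6% to 96.9%. In every library the highest FPKM inside (57.2 to 481) was below the lowest outside (789 to 1680). The plot of levels in genome order shows this gap. The members also differed in how far libraries lay apart. The highest library exceeded the lowest 2.14-fold for mt-Nd6 and 2.47-fold for mt-Co1, against 21.1-fold for mt-Co3 and 26.01-fold for mt-Atp6. This did not follow position throughout. Inside the stretch mt-Nd3, mt-Nd4l and mt-Co2 were at 2.22-fold, 3.33-fold and 4.10-fold, beside 3.08-fold for mt-Cytb outside it. mt-Atp8, at 0 in CD_1, had no such ratio.

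**Figure D3:**
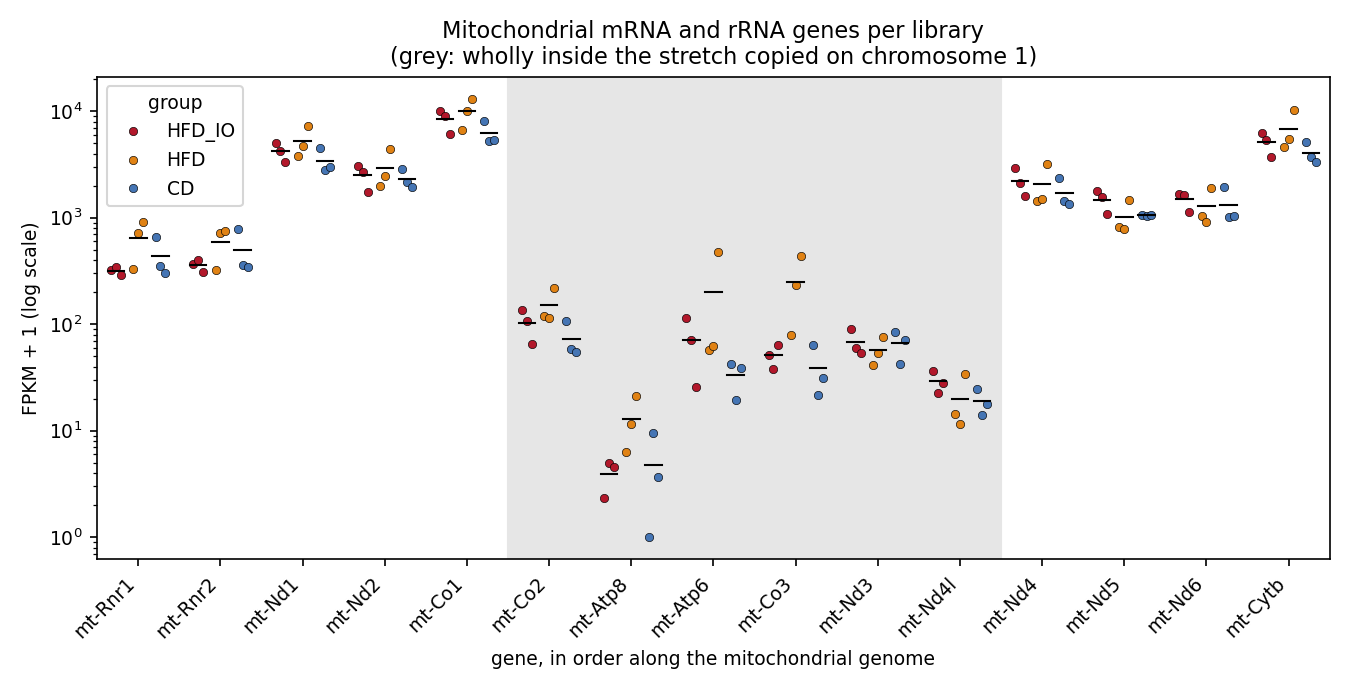
FPKM + 1 on a log scale (y axis) of the 15 mRNA and rRNA genes in genome order (x axis), each point a library, short lines the group means, and grey the genes wholly inside the stretch copied on chromosome 1. In every library all shaded genes lie below all unshaded mRNA genes, and mt-Co3 and mt-Atp6 reach 433 and 481 FPKM in HFD_3.

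The rRNA genes mt-Rnr1 (12S, of the small ribosomal subunit) and mt-Rnr2 (16S, of the large) had lower FPKM than the 7 unshaded mRNAs. mt-Rnr1 had 319, 343 and 289 FPKM in HFD_IO, 328, 714 and 901 FPKM in HFD, and 655, 351 and 304 FPKM in CD. mt-Rnr2 had 363, 400 and 310 FPKM in HFD_IO, 325, 718 and 748 FPKM in HFD, and 774, 362 and 342 FPKM in CD. The HFD_IO libraries were close together, whereas 2 HFD libraries and CD_1 were high, and no comparison passed. The smallest adjusted p was 0.107, for mt-Rnr1 in HFD_IO against HFD (-0.91, SE 0.39). The labels state that total RNA went into the libraries and name no step that removes rRNA or selects mRNA, so the level of rRNA relative to mRNA cannot be told apart from the effect of such a step.

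The relative amounts of the 7 mRNAs that are not wholly copied are given as a percent of their summed FPKM. These proportions were chosen after values had been seen and are descriptions without a test. mt-Nd5 took 5.80%, 5.85% and 5.77% in HFD_IO, 4.02%, 3.05% and 3.52% in HFD, and 4.09%, 6.00% and 6.22% in CD. The 3 HFD libraries were lowest, and CD_1 lay just above them. mt-Nd6 took 5.43%, 6.18% and 6.02% in HFD_IO, 5.05%, 3.48% and 4.59% in HFD, and 7.46%, 5.85% and 6.01% in CD, again with every HFD library lowest.

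mt-Nd4 took 9.51%, 7.96% and 8.50% in HFD_IO, 7.03%, 5.82% and 7.72% in HFD, and 9.06%, 8.26% and 7.90% in CD. mt-Cytb went the other way, with 20.1%, 20.1% and 19.9% in HFD_IO, 22.8%, 21.2% and 24.8% in HFD, and 19.7%, 21.1% and 19.6% in CD. In all 4 of these genes the HFD libraries did not overlap with either other group. mt-Nd2 instead was lower in both groups on the high fat diet, with 9.97%, 10.05% and 9.33% in HFD_IO and 9.65%, 9.49% and 10.7% in HFD, against 11.0%, 12.5% and 11.5% in CD. mt-Co1, the largest part, took 33.0%, 38.8% and 31.4% in HFD, which overlapped with both other groups. Its HFD_IO libraries (32.8% to 33.8%) lay above CD (30.3% to 31.4%). mt-Nd1 overlapped between all groups.

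Relative to mt-Nd1, the FPKM ratio of mt-Nd5 was 35.4%, 36.3% and 32.6% in HFD_IO, 21.8%, 16.8% and 20.3% in HFD, and 23.5%, 37.5% and 35.8% in CD. That of mt-Nd6 was 33.1%, 38.4% and 34.0% in HFD_IO, 27.4%, 19.2% and 26.5% in HFD, and 42.9%, 36.6% and 34.6% in CD. For both genes every HFD library was lowest. mt-Cytb over mt-Nd1 overlapped between the groups, at 112% to 125% in HFD_IO, 117% to 143% in HFD and 113% to 132% in CD. The ratio of the 2 rRNAs, mt-Rnr1 over mt-Rnr2, was 87.8%, 85.8% and 93.3% in HFD_IO, 101%, 99.3% and 121% in HFD, and 84.6%, 96.7% and 88.9% in CD, so here the HFD libraries were highest. A ratio within a library does not depend on its scaling, but it shows unequal change and not which of its 2 terms moved. Macrophage, smooth muscle and brown fat marker sums given above differed between the groups as well, and their part in these ratios was not tested.

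**Figure D4:**
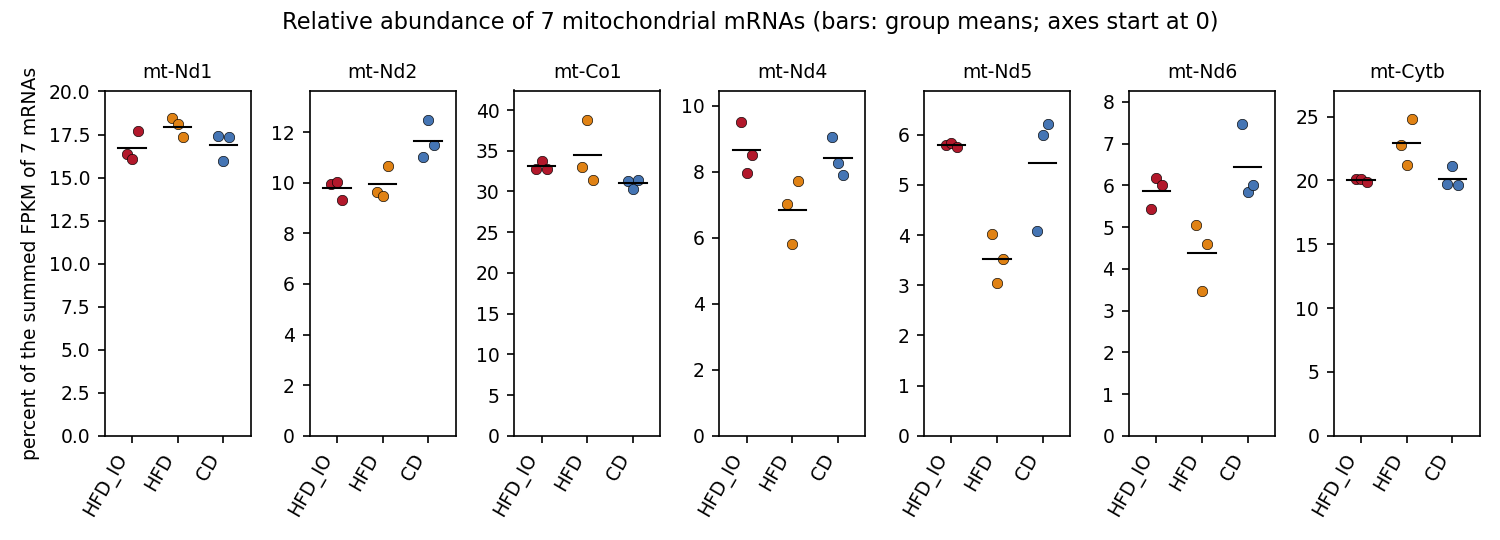
Percent of the summed FPKM of 7 mRNAs (y axes, from 0) for each of the 7 in HFD_IO, HFD and CD (x axes), each point a library and each line a group mean. mt-Nd5, mt-Nd6 and mt-Nd4 are lowest in all HFD libraries, mt-Cytb is highest in them, and mt-Nd2 is highest in CD.

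The tRNA genes had few reads, 999 to 2516 per library over all 22, and 10 of them stayed under 10 reads in every library. Of these, mt-Tf, mt-Td and mt-Tk were at 0 in all 9. A tRNA is shorter than most fragments from which such libraries are built, so reads counted to a tRNA gene may come from uncut precursors or neighbouring transcripts, and these cannot be told apart from mature tRNA. The 8 tRNA genes annotated on the minus strand held 80.5% to 88.3% of tRNA reads, and the 14 of the plus strand the rest. mt-Tp alone held 33.8% to 66.9%. The sources used here do not say whether the counting used strand, so reads of these 8 genes need not be minus-strand RNA. The 5 tRNA genes inside the copied stretch had at most 62 reads.

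mt-Tp, the proline tRNA gene beside the control region, was the highest, with 927, 750 and 495 FPKM in HFD_IO, 509, 701 and 1102 FPKM in HFD, and 759, 462 and 503 FPKM in CD. Its groups overlapped and no comparison passed. As a share of tRNA reads it took 45.6%, 46.3% and 48.5% in HFD_IO, 59.8%, 57.2% and 66.9% in HFD, and 38.0%, 37.9% and 33.8% in CD. These shares did not overlap between any 2 groups, and they were not tested. A share also depends on the other tRNA genes, among them mt-Tc, which was lower in every HFD than in every CD library. A different share is thus not by itself a change of mt-Tp.

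mt-Tc, the cysteine tRNA gene, had 364, 295 and 172 FPKM in HFD_IO, 87.5, 198 and 130 FPKM in HFD, and 631, 342 and 444 FPKM in CD, from 101 to 766 reads. Every HFD library lay below every CD library. The log2 fold change in HFD against CD was -1.80 (SE 0.37, adjusted p = 0.00575), and it passed in 24 of 24 alternative settings, the 9 left-out libraries included. HFD_IO overlapped with HFD, at 1.01 (SE 0.37, adjusted p = 0.0684), and with CD, at -0.79 (SE 0.37, adjusted p = 0.131).

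mt-Tn, the asparagine tRNA gene in the same minus-strand cluster between mt-Nd2 and mt-Co1, had 209, 242 and 114 FPKM in HFD_IO, 66.8, 66.5 and 107 FPKM in HFD, and 201, 122 and 161 FPKM in CD. The HFD libraries lay below those of both other groups. It changed by -1.01 in HFD against CD (SE 0.31, adjusted p = 0.0305) and by 1.19 in HFD_IO against HFD (SE 0.31, adjusted p = 0.0215), each past the threshold in 19 of 24 alternative settings. The first had an adjusted p of 0.0789 to 0.0941 without CD_1, CD_3, HFD_1 or HFD_2, and the second 0.0582 to 0.0717 without HFD_1, HFD_2, HFD_IO_1 or HFD_IO_2. The next gene of that cluster, mt-Ty (tyrosine), had 47.6, 55.6 and 16.1 FPKM in HFD_IO, 17.9, 48.2 and 30.3 FPKM in HFD, and 33.3, 43.2 and 36.9 FPKM in CD, and did not pass. mt-Ta (alanine), also of the cluster, had at most 5 reads.

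mt-Te, the glutamate tRNA gene between mt-Nd6 and mt-Cytb, had 73.7, 53.2 and 67.3 FPKM in HFD_IO, 41.4, 42.5 and 72.2 FPKM in HFD, and 104, 78.9 and 97.9 FPKM in CD. Both groups on the high fat diet lay below CD without overlap. The change was -0.87 in HFD against CD (SE 0.22, adjusted p = 0.0151, past the threshold in 22 of 24 settings, with 0.0501 without CD_3 and 0.0552 without HFD_2) and -0.53 in HFD_IO against CD (SE 0.22, adjusted p = 0.104).

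mt-Th, the histidine tRNA gene, had 29.1, 12.8 and 23.7 FPKM in HFD_IO, 11.9, 13.4 and 8.27 FPKM in HFD, and 24.3, 20.3 and 22.1 FPKM in CD, from only 9 to 36 reads. It changed by -0.95 in HFD against CD (SE 0.27, adjusted p = 0.0227) and by 0.86 in HFD_IO against HFD (SE 0.27, adjusted p = 0.0430), where HFD_IO_2 lay within the HFD range. These passed in 17 and 11 of 24 settings, and the first had an adjusted p of 0.0747 without HFD_3, 0.0532 without CD_1 and 0.06 without CD_3. The second had 0.0538 to 0.141 when any of the HFD libraries, CD_2, CD_3, HFD_IO_1 or HFD_IO_3 was left out. Neither passed with voom on recovered reads. With plain library totals the adjusted p was 0.0542 and 0.116, and with median-of-ratios library sizes 0.0826 and 0.134. Without a filter on low values it was 0.0565 and 0.105.

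mt-Tl1, the leucine tRNA gene between mt-Rnr2 and mt-Nd1, went the other way, with 66.3, 51.2 and 31.7 FPKM in HFD_IO, 21.3, 43.1 and 33.6 FPKM in HFD, and 21.7, 18.9 and 19.0 FPKM in CD. All HFD_IO libraries lay above all CD libraries, from 25 to 92 reads. The change of 1.22 in HFD_IO against CD (SE 0.29, adjusted p = 0.0115) passed in 24 of 24 settings, and HFD overlapped with both other groups (0.64 in HFD against CD, SE 0.29, adjusted p = 0.111).

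Relative to mt-Nd1, mt-Tc had an FPKM ratio of 7.18%, 6.89% and 5.15% in HFD_IO, 2.33%, 4.22% and 1.79% in HFD, and 14.0%, 12.2% and 15.0% in CD. No 2 groups overlapped. The same order held for mt-Te over mt-Nd1, with 1.45%, 1.24% and 2.02% in HFD_IO, 1.10%, 0.907% and 0.999% in HFD, and 2.31%, 2.83% and 3.30% in CD. Other tRNA ratios did not follow that order. For mt-Tn over mt-Nd1, HFD lay below both other groups, and HFD_IO (3.42% to 5.67%) overlapped with CD (4.38% to 5.42%). For mt-Th over mt-Nd4, HFD lay below CD, and HFD_IO overlapped with both. These ratios are descriptions without a test, and the 4 tRNA genes had already passed in HFD against CD on the same values. The tRNA levels behind the ratios are in the plot of tRNA genes.

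**Figure D5:**
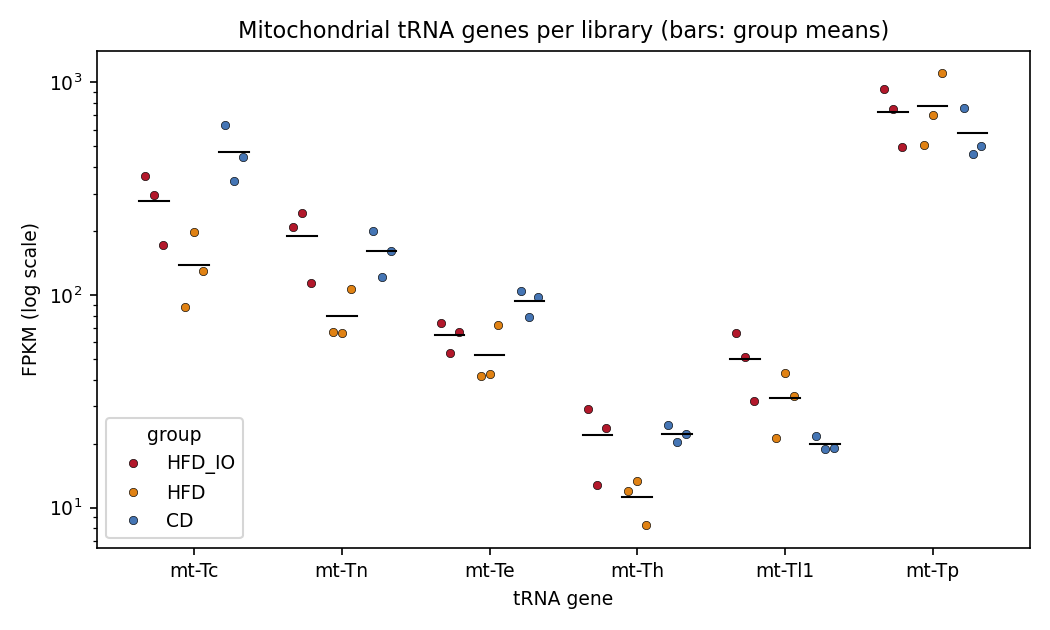
FPKM on a log scale (y axis) of 6 tRNA genes (x axis) in HFD_IO, HFD and CD, each point a library and each short line a group mean. mt-Tc, mt-Tn and mt-Th are lower in all HFD than in all CD libraries, mt-Te likewise, mt-Tl1 is higher in all HFD_IO than in all CD libraries, and mt-Tp overlaps between the groups.

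Members work together with nuclear-encoded subunits in the same complexes. Of 75 nuclear-encoded subunits of complexes I to V, 64 rose and none fell in HFD against CD, and 65 fell and none rose in HFD_IO against HFD, whereas 1 fell and none rose in HFD_IO against CD. Over all genes tested, 21.8% were higher and 17.6% lower in HFD against CD. The shares were 14.1% and 14.5% in HFD_IO against HFD, and 17.5% and 15% in HFD_IO against CD. In HFD against CD the medians were 0.72 for 36 complex I genes (30 rose), 0.80 for 4 complex II genes (4 rose), 0.86 for 9 complex III genes (8 rose), 0.92 for 11 complex IV genes (10 rose) and 0.66 for 15 complex V genes (12 rose), beside 0.06 over all genes tested. In HFD_IO against HFD the medians were -0.82 (32 fell), -0.64 (3 fell), -0.96 (9 fell), -0.88 (10 fell) and -0.61 (11 fell) in the same order, beside -0.00. In HFD_IO against CD they were -0.13, 0.17, 0.05, 0.00 and -0.08, beside -0.01, and limma called 1 complex I gene, Ndufb2 (-0.69, SE 0.17, adjusted p = 0.0125), with 2, 0, 0, 1 and 0 genes at an unadjusted p under 0.05.

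These counts depended on scaling and on single libraries. For the alternative settings here and in the lists below, the share of all genes called is not given. Counts under those settings therefore have no background beside them. Rescaled to TPM, 28 rose in HFD against CD and 59 fell in HFD_IO against HFD. This scaling moved the median of all genes to -0.32 in the first comparison and to 0.16 in the second. Under quantile normalization 25 rose and 44 fell in the same 2 comparisons, and without HFD_3, 44 rose and 40 fell. The first count was 35 without CD_2 and 32 without CD_3, and the second 38 without HFD_IO_1 and 40 without HFD_IO_3. Without HFD_3 and CD_1 together, a setting added after the data had been seen, 72 rose and 63 fell. In HFD_IO against CD the counts moved as well: 14 fell and 0 rose (limma) under TPM, which moved the median of all genes to -0.23. Under quantile normalization 4 fell, whereas 2 rose and 1 fell without CD_1, and 5 rose and 1 fell without CD_1 and HFD_3 together. Brown adipocyte marker sums were higher in every HFD library than in all others, with Ucp1, the uncoupling protein of brown fat, at 37.8, 31.6 and 55.2 FPKM in HFD_IO, 189, 209 and 321 FPKM in HFD, and 81.0, 43.5 and 43.8 FPKM in CD. That sum is not independent of the counts, since its marker Cox7a1 is also among the complex IV subunits counted above. Cox8b, another complex IV subunit, was the largest of the 8 markers in every library. It had 93.7, 156 and 104 FPKM in HFD_IO, 282, 351 and 845 FPKM in HFD, and 220, 135 and 90.2 FPKM in CD. Not all 8 markers of that list moved together. Dio2, the deiodinase that activates thyroid hormone, had 9.12, 4.75 and 5.09 FPKM in HFD_IO, 7.09, 3.99 and 8.10 FPKM in HFD, and 26.3, 23.1 and 26.6 FPKM in CD, so it was highest in CD. Cidea, a lipid droplet protein, had 41.9, 67.5 and 65.8 FPKM in HFD_IO, 77.5, 115 and 241 FPKM in HFD, and 109, 83.8 and 62.2 FPKM in CD, with HFD_1 inside the range of CD. The part of these cells in the counts was not tested.

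Cox7a1, the complex IV subunit of heart, skeletal muscle and brown fat, had 20.4, 26.6 and 20.3 FPKM in HFD_IO, 53.9, 68.2 and 143 FPKM in HFD, and 26.2, 22.4 and 18.8 FPKM in CD. All HFD libraries lay above all others (1.81, SE 0.31, adjusted p = 0.00294 in HFD against CD, and -1.81, SE 0.31, adjusted p = 0.00455 in HFD_IO against HFD). Further examples in HFD against CD were Ndufa1 of complex I (1.35, SE 0.21), Sdhd of complex II (1.07, SE 0.19), Uqcrq of complex III (1.38, SE 0.24) and Atp5b, the catalytic beta subunit of ATP synthase (0.98, SE 0.20). In HFD_IO against HFD they were Ndufa5 (-1.13, SE 0.19), Uqcr10 (-1.16, SE 0.26) and Atp5k (-1.46, SE 0.27), all past the threshold. The median SE of these lists was 0.18 to 0.23, against 0.35 for the mitochondrial mRNAs. Whether nuclear and mitochondrial subunits changed by different amounts was not tested.

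Mitochondrial ribosomal proteins moved with the nuclear subunits: 44 of 77 rose and 1 fell in HFD against CD (median 0.45), led by Mrpl34 (1.15, SE 0.19), 40 fell in HFD_IO against HFD (median -0.41), and 2 rose and 4 fell in HFD_IO against CD (median 0.02). Under TPM, 16 rose and 6 fell in HFD against CD. The first count was 27 without CD_3 and 29 without HFD_3, and the 40 falls became 21 without HFD_3, 23 without HFD_IO_1 and 24 without HFD_IO_3. Proteins used as measures of mitochondrial mass, such as the porin Vdac1 and the import receptor Tomm20, gave 7 higher of 14 in HFD against CD (Vdac1 0.73, SE 0.10, and Tomm20 0.67, SE 0.08), 4 lower in HFD_IO against HFD, and 4 higher and 1 lower in HFD_IO against CD. The background in these comparisons was 21.8% higher, 14.5% lower, and 17.5% higher with 15% lower. Under TPM, 3 rose and 1 fell in HFD against CD, 4 rose under quantile normalization, and 5 without CD_3 or without HFD_3. The 4 falls became 2 without HFD_IO_1.

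The 25 tested genes of mitochondrial transcription and RNA processing or decay changed little as a group, with medians of 0.05, -0.12 and -0.06 in HFD against CD, HFD_IO against HFD and HFD_IO against CD. In HFD against CD 4 rose and 1 fell, against a background of 21.8% higher and 17.6% lower. Among those that rose were Mrpl12, a ribosomal protein that also binds the mitochondrial RNA polymerase (0.86, SE 0.12), and Rexo2, the nuclease that removes the shortest RNA fragments (0.57, SE 0.09). Under TPM the adjusted p of Rexo2 in HFD against CD was 0.222. In HFD_IO against HFD 3 fell, among them Rexo2 (-0.71, SE 0.09), and in HFD_IO against CD 2 fell, among them Mterf3 (-0.56, SE 0.12), a factor that represses mitochondrial transcription. The background was 14.5% lower in HFD_IO against HFD and 15% lower in HFD_IO against CD. Under TPM, 1 rose and 7 fell in HFD against CD, so the direction of this list followed the scaling. TPM moved the median of all genes in that comparison to -0.32, so a shift to falls was not particular to this list.

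Of 15 genes of mitochondrial DNA replication and upkeep, 2 rose and 2 fell in HFD against CD, 2 and 2 in HFD_IO against HFD, and 1 and 2 in HFD_IO against CD, against backgrounds of 21.8% and 17.6%, 14.1% and 14.5%, and 17.5% and 15%. Under TPM 0 rose and 8 fell in HFD against CD, and 0 rose and 5 fell in HFD_IO against CD, so the direction followed the scaling. The medians of all genes under TPM were -0.32 and -0.23 in these 2 comparisons. Without HFD_3, and without HFD_IO_3, 0 were called in HFD_IO against HFD. Slc25a33, a pyrimidine nucleotide carrier, changed by 0.87 in HFD against CD (SE 0.22) and by -0.79 in HFD_IO against HFD (SE 0.22). The first had an adjusted p of 0.056 under TPM, and the second of 0.0616 without HFD_3, 0.0625 without HFD_IO_1 and 0.0863 without HFD_IO_3. Dguok, which salvages purine deoxynucleosides for mitochondrial DNA, changed by -0.61 in HFD_IO against CD (SE 0.11). Of 8 tested regulators of mitochondrial biogenesis, Esrra, an estrogen-related receptor, rose in HFD against CD (0.76, SE 0.13), and Perm1, Pprc1 and Nrf1 fell (-0.88, -0.62 and -0.37). None was called in HFD_IO against HFD by limma (1 at an unadjusted p under 0.05), and in HFD_IO against CD Esrra rose (0.62, SE 0.13) and Perm1 (-0.76, SE 0.11) and Nrf1 (-0.33, SE 0.09) fell. Under TPM 0 rose and 6 fell of 9 in HFD against CD (adjusted p of Esrra 0.0619), and 0 rose and 3 fell in HFD_IO against CD (0.0608). Nrf1 in HFD_IO against CD had an adjusted p of 0.0686 without CD_2, 0.0566 without CD_3, 0.0533 without HFD_IO_1 and 0.0676 without HFD_IO_2.

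The mitochondrial aminoacyl-tRNA synthetases charge the tRNAs described above. Of 19 tested, 5 rose and 3 fell in HFD against CD, 1 rose and 1 fell in HFD_IO against HFD, and 4 rose and 3 fell in HFD_IO against CD, against backgrounds of 21.8% and 17.6%, 14.1% and 14.5%, and 17.5% and 15%. Under TPM 0 rose and 7 fell of 20 in HFD against CD, and 1 rose and 5 fell in HFD_IO against CD, so the balance of this list followed the scaling. That scaling moved the medians of all genes to -0.32 and -0.23 in these 2 comparisons. In HFD against CD 3 rose without HFD_2, and in HFD_IO against CD 1 rose without CD_3 or without HFD_IO_2. Lars2, which charges leucine tRNAs, had 16.0, 30.5 and 61.5 FPKM in HFD_IO, 9.21, 8.32 and 13.8 FPKM in HFD, and 5.88, 11.3 and 9.40 FPKM in CD. All HFD_IO libraries lay above all others, with a wide spread (1.53, SE 0.42, adjusted p = 0.0272 against HFD, and 1.75, SE 0.42, adjusted p = 0.0123 against CD). Against HFD its adjusted p was 0.0652 without HFD_1, 0.0792 without HFD_2, 0.0669 without HFD_IO_2 and 0.0595 without HFD_IO_3. Cars2 and Ears2, which charge mt-Tc and mt-Te, fell in HFD against CD (-0.63, SE 0.11, and -0.52, SE 0.13) and in HFD_IO against CD (-0.65, SE 0.11, and -0.55, SE 0.13).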

How the data were processed

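RNA sequencing of 9 aortas was analysed from a single table in which the authors deposited FPKM per gene, with gene length, position and biotype. Per the submitters' processing notes, HISAT2 and the human build hg38 are named, yet the table holds mouse genes, and the coordinates and lengths of all 44 genes compared (37 members and 7 copies) matched the GRCm38 annotation. Per the labels' protocols, NEBNext Ultra libraries were made from total RNA; the sources used here do not give rRNA or poly(A) selection, strand, read length, the counting tool or the treatment of multiply aligned reads.

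FPKM times length came in whole steps for 100% of values within 0.05 reads, so whole reads were recovered; the scaling of the deposited FPKM was proportional to median-of-ratios size factors. Depth was 16660963 to 18308450 reads, and counting error depends on the gene, with 0 to 67 reads per library for mt-Atp8, 9 to 36 for mt-Th, 546 to 1200 for mt-Tp and 144471 to 328423 for mt-Co1. The column numbers do not appear in the labels, so columns were assigned to groups and not to single samples. Replicates differed beyond counting noise (chi-square per degree of freedom 5.97 to 51.0 in all 9 pairs).

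The test was limma 3.58.1 (R 4.3.3) with a mean-variance trend on log2(FPKM + 1), on all 13883 genes with FPKM of at least 1 in at least 3 libraries, fitted to the 9 libraries with 3 group means, with Benjamini-Hochberg adjustment and a threshold of 0.05. A fold change on this scale understates the change of low genes. The procedure was checked on simulated counts. Alternatives were other pseudocounts, filters, scalings, weights, voom on recovered reads, and each library left out. All protein-coding and rRNA members are named; tRNA genes are named with at least 100 reads in every library or when past the threshold without overlap of the groups, and mt-Ty and mt-Ta were added after their values were seen. Up to 4 called genes per list with the largest change were eligible for naming. The members and lists were chosen with earlier results of these data known. Sequences came from the GENCODE transcripts and were matched by BLAST.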

Additional observations from a re-analysis of the deposited data

How the results depend on the processing

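The count of mitochondrial genes past the threshold depended on the processing. In HFD against CD it was 6, with 3 without a filter on low values, 13 with array weights (8 higher, 5 lower), and 2 to 7 when each library was left out in turn; it was lowest at 2 without CD_3, and 3 without HFD_2. For HFD_IO against HFD it was 3, with 0 without the filter (limma, 4 at an unadjusted p under 0.05) and 0 to 4 when each library was left out; it was 0 without HFD_IO_1 (5 at an unadjusted p under 0.05) and 1 without HFD_2. For HFD_IO against CD it was 1, with 2 after rescaling to TPM, 2 under quantile normalization, 3 with array weights, 2 with only the 6 libraries compared, 2 without CD_1 and HFD_3 together (added after seeing the data), and 1 to 2 with each library left out, the 2 arising without HFD_3 and without HFD_IO_1. The share of all genes called, or under an unadjusted p of 0.05, in each alternative setting is not given here. These counts therefore cannot be read as particular to mitochondrial genes. The cause of these shifts was not tested. As a share of summed FPKM, in place of reads, the mitochondrial genome took 8.03% in HFD_IO, 8.11% in HFD and 7.63% in CD. No called change of a named gene reversed its sign, and 72 values of genes called in neither setting had another sign or were exactly 0. No paired analysis was possible because the labels number the aortas 1 to 9 across groups and give no shared numbers. With 3 libraries per group and 9 to 36 reads for a gene such as mt-Th, depth limits the tRNA genes most.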
